A study of Homo sapiens with 2 samples.

Results

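The telomerase ribonucleoprotein genes described here are the 10 genes TERT, TERC, DKC1, NOP10, NHP2, GAR1, NAF1, WRAP53, PARN and PINX1. They were taken by name, as the catalytic subunit, the RNA, the H/ACA proteins and the biogenesis factors of telomerase, and all of their transcripts in GENCODE v29 were used: 10 of 57894 genes and 72 of 198002 transcripts in the deposited tables. Telomerase adds telomeric repeats to chromosome ends by copying a short template inside its own RNA, TERC, with the reverse transcriptase TERT. TERC belongs to the H/ACA class of RNAs. These are bound by the pseudouridine synthase dyskerin (DKC1) with NOP10, NHP2 and GAR1, and are assembled with the help of NAF1. WRAP53 (TCAB1) guides TERC to Cajal bodies. HEK293 cells express TERT and keep their telomeres with it, and relatives of LARP7 in ciliates and fission yeast are known as telomerase RNA-binding proteins.

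The libraries came from parental HEK293 cells, an established human embryonic kidney line, and from 1 clone of these cells, clone 1-11, in which LARP7 was knocked out, with 2 libraries of total RNA in each group. Both groups were grown in the same medium without a further treatment named in the labels, and the study asked how loss of LARP7 affects transcript levels and alternative splicing. A source field of the knockout sample reads wildtype, and the group was taken from its title and genotype. No label says that the libraries within a group are from different cultures, so the p-values measure the spread between libraries, which may be technical, and the knockout cannot be told apart from any other property of the clone.

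The libraries held 12851942 to 18483220 estimated reads. LARP7 itself was at 59.8 and 46.5 CPM in the parental and at 36.1 and 31.9 CPM in the knockout ones, where CPM is the read count scaled for depth with TMM factors. LARP7 did not pass the test (log2 fold change -0.65, SE 0.16, edgeR quasi-likelihood adjusted p = 0.135), while its partner RNA 7SK fell from 5571.6 and 5481.3 to 169.5 and 204.5 CPM (adjusted p = 1.13e-06 in the same test). All 6 HEK293 markers looked for had reads; PAX2 ran from 4.11 to 5.86 CPM over the libraries, while NEFM was at 47.0 and 72.1 CPM in parental and at 7.90 and 8.94 CPM in knockout cells. Of 12 markers of blood, endothelium, fibroblasts and liver, 5 were at 0 in all libraries and 11 were under 1 CPM in all of them, and their summed level was 5.63 and 6.93 CPM in the parental and 8.26 and 8.02 CPM in the knockout libraries. Parental library 2 was the shallowest, and transcripts under 200 bases held 47.8% of its TPM (a level per length, scaled to a fixed total), against 27.1 to 31.1% in the other libraries.

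The sequence of TERC is shown because the annotation holds the RNA under 2 overlapping names, and this decides how its reads are counted. TERC-201 is the transcript of the gene TERC, an exon on the minus strand of chromosome 3 (GRCh38, 169764520 to 169765060, 541 bases). RF00024.1-201, named after the vertebrate telomerase RNA family, is a separate entry inside it (169764610 to 169765047, 438 bases). The transcript sequences are those of GENCODE v29, written as DNA, 5′ to 3′. In the 5′ lines the capitals mark the 11-base template, which occurs 1 time in TERC-201, at bases 46 to 56 counted from its 5′ end. In the 3′ lines the capitals mark TGAG, the letters of the box that WRAP53 recognises in Cajal body RNAs (2 matches on this strand up to base 451), and the ACA that ends an H/ACA RNA, which is followed by 3 bases.
TERC-201, 5′ end, chr3:169764985-169765060, minus strand: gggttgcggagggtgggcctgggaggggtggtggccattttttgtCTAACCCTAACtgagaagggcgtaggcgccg
RF00024.1-201, 5′ end, chr3:169764985-169765047, minus strand: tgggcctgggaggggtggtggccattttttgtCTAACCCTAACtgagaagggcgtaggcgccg
TERC-201, 3′ end, chr3:169764520-169764654, minus strand: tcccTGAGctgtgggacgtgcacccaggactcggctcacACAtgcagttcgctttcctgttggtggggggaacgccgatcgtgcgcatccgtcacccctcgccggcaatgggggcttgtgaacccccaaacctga
RF00024.1-201, 3′ end, chr3:169764610-169764654, minus strand: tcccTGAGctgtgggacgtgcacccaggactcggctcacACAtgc
The RF00024 entry starts 13 bases inside the 5′ end of TERC-201 and stops at base 451, where RefSeq also ends TERC. TERC-201 of GENCODE v29 runs 90 bases further. A read that lies within the shared 438 bases can belong to either entry, and only reads that reach the first 13 or the last 90 bases can tell them apart.

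TERC on its own entry had 172.5 and 79.4 estimated reads in parental and 180.5 and 181.1 in knockout cells. The RF00024 entry had 125.5 and 283.6 reads in the parental and 156.5 and 248.9 in the knockout libraries. Parental library 2 was lowest on the first entry and highest on the second. RF00024 took 42.1 and 78.1% of the reads of both entries in parental and 46.4 and 57.9% in knockout cells, so the split differed more between the 2 parental libraries than between the 2 knockout libraries.

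Scaled to CPM, TERC was at 9.83 and 6.27 in parental and at 10.6 and 10.7 in knockout cells, and both knockout libraries lay above both parental ones. The difference did not pass the test (log2 fold change 0.39, SE 0.27, 95% interval -0.23 to 1.01, edgeR quasi-likelihood adjusted p = 0.565). With the reads of both entries summed, a choice made after seeing the data, the locus was at 16.9 and 28.8 CPM in parental and at 19.7 and 25.4 CPM in knockout cells. Parental library 2 was then the highest, the knockout libraries lay between the parental ones, and the log2 fold change was -0.01 (SE 0.26, 95% interval -0.61 to 0.58, adjusted p = 0.991 in the same test). This interval runs from 0.656 to 1.498 times the parental level. RF00024 alone had a log2 fold change of -0.30 (SE 0.47, adjusted p = 0.828), with overlapping groups. Fewer cells that express a gene and less of its RNA per cell cannot be told apart in these bulk libraries.

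**Figure D1:**
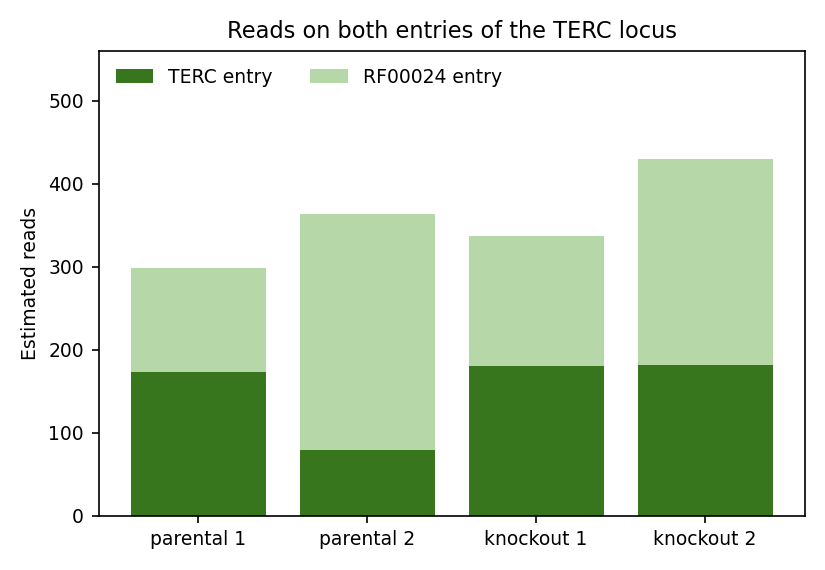
Estimated reads (vertical axis, not scaled for depth) on the TERC entry (dark) and the RF00024 entry (light) in each library. The TERC entry alone is lowest in parental library 2, at 79.4 reads, while the sum of both entries is lowest in parental library 1, at 298 reads, and highest in knockout library 2, at 430 reads.

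TERT, the reverse transcriptase, lies on the minus strand of chromosome 5 (GRCh38, 1253147 to 1295069) and has 6 transcripts in the annotation. Its normalised read count was 5.80 and 5.08 CPM in the parental and 8.29 and 6.57 CPM in the knockout libraries. Both knockout libraries were higher, without overlap. The difference did not pass the test (log2 fold change 0.45, SE 0.28, edgeR quasi-likelihood adjusted p = 0.525), and its 95% interval allowed 0.873 to 2.13 times the parental level. With an offset for transcript length the log2 fold change was 0.03 (adjusted p = 0.986 in the same test). These levels rest on 102 and 64 estimated reads in the parental and 142 and 111 in the knockout libraries.

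None of the 10 genes passed edgeR's quasi-likelihood test with Benjamini-Hochberg adjustment at 0.05, against 0.833% of the 18484 genes tested (0.33% higher and 0.503% lower in the knockout). At an unadjusted p under 0.05 the count was also 0 of 10, against 14.3% of all genes. DESeq2 called 0 of them, against 2.44% of the genes to which it gave an adjusted p, and limma voom called 0. TERT, and TERC on its own entry, were higher in both knockout libraries than in both parental ones (2 of 10, against 23.5% of all genes). NAF1 and WRAP53 were lower in both (2 of 10, against 22.7%). The other 6 overlapped. The median log2 fold change of the 10 genes was 0.04, beside 0.00 for all genes tested.

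**Figure D2:**
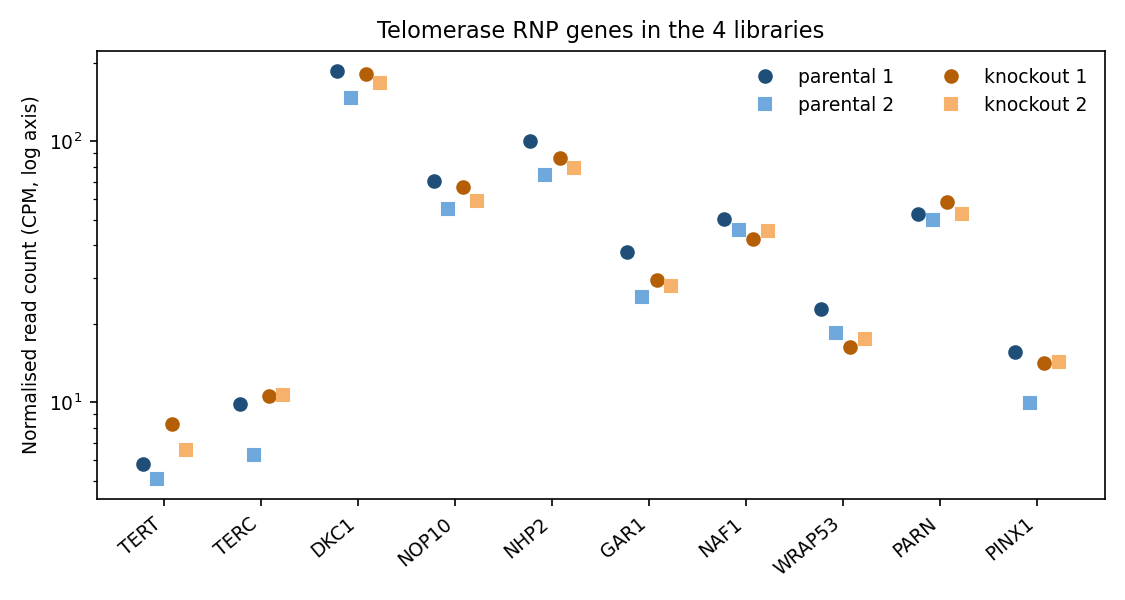
Normalised read count (CPM, log axis) of the 10 telomerase genes, 1 point for each library. TERT and TERC (on its own entry, without RF00024) have both knockout points above both parental points. NAF1 and WRAP53 have both below, and the other 6 genes overlap. Parental 2 is below parental 1 in all 10 genes as plotted.

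DKC1 on chromosome X (GRCh38, 154762742 to 154777689, plus strand) encodes dyskerin, which binds TERC directly. It was at 186 and 146 CPM in the parental and at 181 and 168 CPM in the knockout libraries. Both knockout values fell between the parental ones, and the log2 fold change was 0.07 (SE 0.14, edgeR quasi-likelihood adjusted p = 0.873), with an interval of 0.837 to 1.32 times the parental level. The introns of DKC1 host H/ACA RNAs of their own: SNORA36A had 1 read in parental library 1 and none in the other 3, and SNORA56 had 0 in all 4. Exons of some annotated DKC1 transcripts share 117 bases with SNORA36A and 129 with SNORA56 on the same strand, so the split of reads between these genes is uncertain.

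NOP10, the small protein that braces the dyskerin active site, lies on the minus strand of chromosome 15 (34341713 to 34343177). Its values were 70.6 and 55.0 CPM in parental and 67.1 and 59.3 CPM in knockout cells, which overlap. Of the 10 genes it had the log2 fold change nearest 0, at 0.01 (SE 0.15, edgeR quasi-likelihood adjusted p = 0.993), with an interval of 0.787 to 1.28 times the parental level. NHP2, the H/ACA core protein related to L7Ae, lies on the minus strand of chromosome 5 (178149460 to 178153967). NHP2 was at 100.0 and 74.2 CPM in parental and at 86.7 and 79.5 CPM in knockout cells, with the knockout libraries between the parental ones. Its log2 fold change was -0.07 (SE 0.16, adjusted p = 0.891 in the same test), with an interval of 0.739 to 1.23 times. The exons of NHP2 share 414 bases with RMND5B on the opposite strand, and the strand setting of the counting is not given in the sources used here.

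GAR1 replaces NAF1 when an H/ACA particle matures, and lies on the plus strand of chromosome 4 (109815510 to 109824740). It was at 37.7 and 25.2 CPM in parental and at 29.4 and 27.9 CPM in knockout cells. The knockout libraries again lay between the parental ones, and the log2 fold change was -0.14 (SE 0.20, edgeR quasi-likelihood adjusted p = 0.811). NAF1, the assembly factor that GAR1 replaces, lies on the minus strand of chromosome 4 (163110073 to 163166921). NAF1 was at 50.5 and 45.7 CPM in parental and at 42.3 and 45.2 CPM in knockout cells. The groups did not overlap, but knockout library 2 and parental library 2 differed little, and the log2 fold change was -0.14 (SE 0.14, 95% interval -0.45 to 0.17, adjusted p = 0.699 in the same test).

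WRAP53, which carries TERC to Cajal bodies, lies on the plus strand of chromosome 17 (7686071 to 7703502). It was at 22.8 and 18.4 CPM in parental and at 16.3 and 17.5 CPM in knockout cells. Both knockout libraries were lower, and the log2 fold change of -0.29 (SE 0.19, 95% interval -0.72 to 0.14) was the most negative of the 10 genes, with an edgeR quasi-likelihood adjusted p of 0.544.

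PARN is the deadenylase that trims the oligo-adenylated 3′ end of TERC, and lies on the minus strand of chromosome 16 (14435701 to 14632728). It was at 52.7 and 50.02 CPM in parental and at 58.6 and 52.5 CPM in knockout cells. Knockout library 2 fell just below parental library 1, so the groups overlapped, and the log2 fold change was 0.11 (SE 0.13, 95% interval -0.19 to 0.41, edgeR quasi-likelihood adjusted p = 0.747).

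PINX1, which binds TERT and inhibits telomerase, spans 10725399 to 10839884 on the minus strand of chromosome 8 over its 2 annotated entries. The tested entry, of 8 transcripts, was at 15.6 and 9.92 CPM in parental and at 14.1 and 14.3 CPM in knockout cells. The knockout libraries lay between the parental ones, and the log2 fold change was 0.15 (SE 0.25, 95% interval -0.41 to 0.71, edgeR quasi-likelihood adjusted p = 0.837). A second annotated entry of PINX1 holds 1 transcript, with 2.8 and 0 reads in parental and 6.2 and 7.9 in knockout cells. Only that transcript reaches the lower end of the span given above. The 1268 exon bases that PINX1 shares with SOX7 on the same strand were counted over both entries. How many of them lie in the tested entry was not worked out. Whether the split of reads with SOX7 touches the CPM and log2 fold change given here was not tested.

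**Figure D3:**
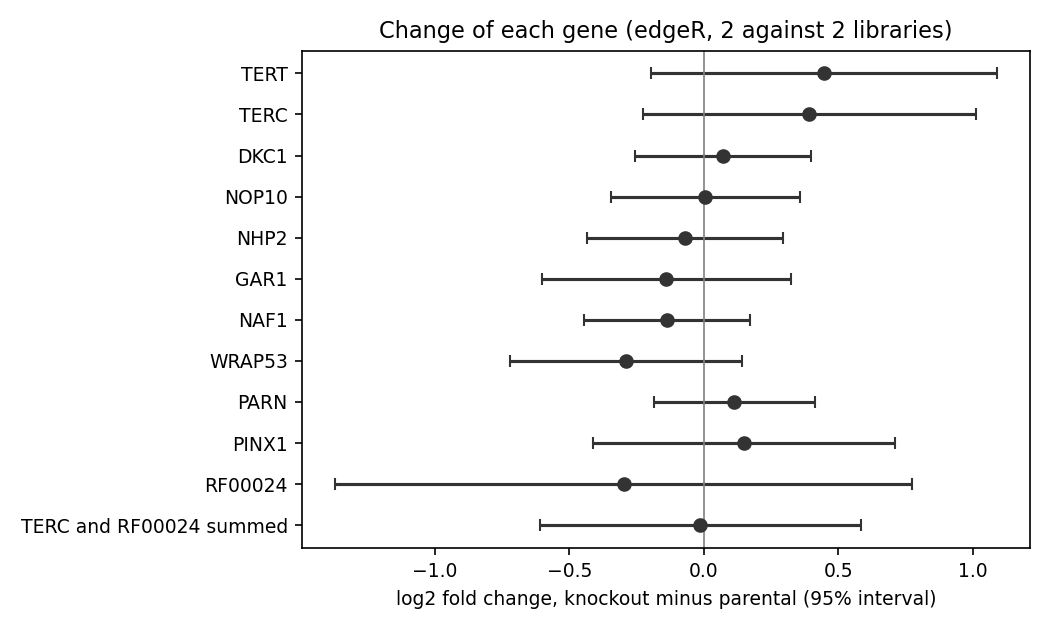
log2 fold change, knockout minus parental, from edgeR's quasi-likelihood fit, with 95% intervals, for the 10 telomerase genes, the RF00024 entry and the TERC locus with both entries summed. Every interval includes 0; TERT has the highest estimate (0.45), RF00024 the lowest (-0.30), and TERC goes from 0.39 to -0.01 when both entries are summed.

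The parental libraries differed from each other in 1 direction across the genes. With TERC on its own entry, parental library 2 was below parental library 1 in 10 of 10 members (median log2 ratio -0.35). This held for 49.3% of all genes tested (median 0.01) and for 55.1% of the protein-coding ones. With RF00024 summed in, the TERC locus went the other way, from 16.9 CPM in parental library 1 to 28.8 CPM in parental library 2. Knockout library 2 was below knockout library 1 in 6 of 10 members, against 49.2% of all genes. For 5 of the 6 genes that overlapped, both knockout values lay between the parental ones, and PARN was the exception. Parental library 2 also had the shortest estimated fragments, about 207 bases, against 217 in parental library 1 and 226 and 233 in the knockout libraries. The part of fragment length and of short RNAs in these differences was not tested.

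Levels were compared between genes only per length, within a library, because the share of TPM held by short RNAs differed between libraries. NOP10 had the highest level in all 4 libraries, at 149 and 89.4 TPM in parental and 177 and 149 TPM in knockout cells. NHP2 came next (135, 74.3, 145 and 122 TPM in the same order), followed by DKC1 (79.4, 52.2, 102 and 87.8 TPM). This order of the 3 core proteins, and the order PINX1, WRAP53, TERT at the lower end, was the same in every library. GAR1, NAF1, TERC on its own entry and PARN held ranks 4 to 7. GAR1 and NAF1, NAF1 and TERC, and TERC and PARN changed places between libraries. GAR1 was above TERC and PARN in all 4 libraries, and NAF1 was above PARN in all 4. TERT was the lowest, at 5.32 and 2.93 TPM in parental and 6.98 and 4.10 TPM in knockout cells.

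Divided by DKC1 of the same library, NOP10 was at 1.88 and 1.71 in parental and 1.74 and 1.70 in knockout cells. NHP2 was at 1.70 and 1.42 in parental and 1.43 and 1.39 in knockout cells, and parental library 1 stood above the other 3. GAR1, the last of the core proteins to join, was at 0.402 and 0.316 in parental and 0.307 and 0.323 in knockout cells, which overlap. NAF1 was at 0.331 and 0.361 in parental and at 0.261 and 0.310 in knockout cells, without overlap. WRAP53 was at 0.0945 and 0.0954 in parental and at 0.0734 and 0.0744 in knockout cells, without overlap. TERC on its own entry was at 0.271 and 0.204 in parental and at 0.285 and 0.320 in knockout cells, also without overlap. With RF00024 added, the TERC locus reached 44.0 and 64.7 TPM in parental and 65.8 and 84.2 TPM in knockout cells, and in parental library 2 this was above DKC1. Divided by DKC1 of the same library, this sum was lowest in parental library 1 and highest in parental library 2, so the groups then overlapped. These ratios are descriptions of the libraries and were not tested. The share of all genes whose ratio to DKC1 was apart between the groups was not worked out. By CPM, 23.5% of all genes were higher and 22.7% lower in both knockout libraries.

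**Figure D4:**
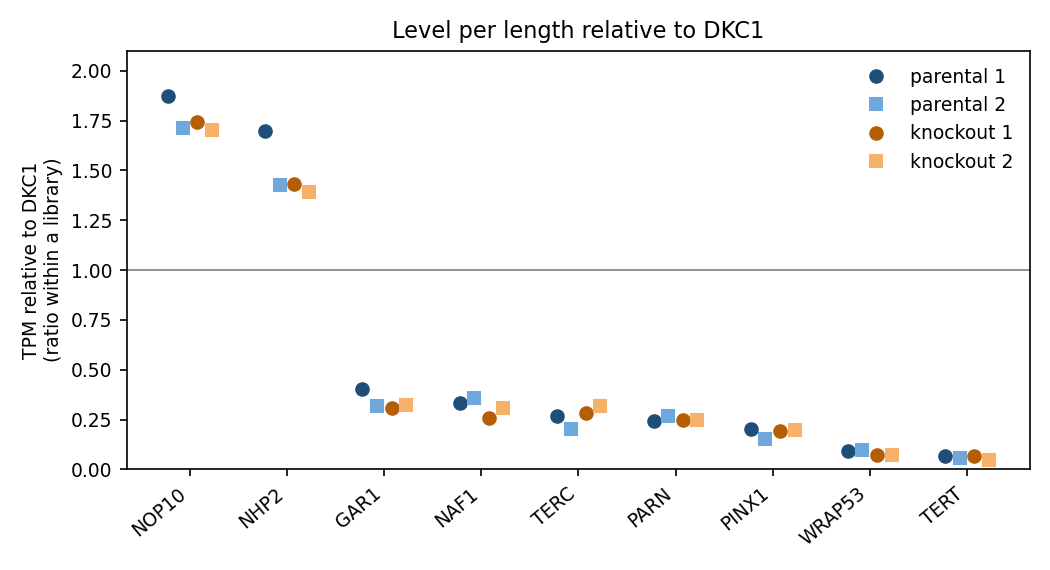
TPM of each gene divided by the TPM of DKC1 in the same library (vertical axis, the line at 1 is DKC1), 1 point for each library. NOP10 and NHP2 are above DKC1 in all 4 libraries, and the other 7 genes are below it, down to TERT at 0.0467 in knockout library 2.

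Transcripts that held at least 5% of their gene's TPM in 2 or more libraries numbered 31 over the 10 genes. For 4 of the 31 the share was higher in both knockout libraries than in both parental ones, and for 4 it was lower. Over all genes tested, 16% of such transcripts were higher in both and 15.2% were lower in both. Transcript usage could be tested with edgeR's diffSpliceDGE for 7 of the 10 genes, all but DKC1, NOP10 and TERC. None of the 7 was called, against 0.683% of the 9517 genes tested. The Benjamini-Hochberg adjusted Simes p of edgeR was 1 for each of them, and none had an unadjusted p under 0.05.

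GAR1 had the widest shift in shares between 2 coding transcripts. GAR1-201 held 19.1 and 25.4% of GAR1 TPM in parental and 8.07 and 11.7% in knockout cells, a mean of 22.3% ± 4.5 (SD, n = 2) against 9.90% ± 2.6 (SD, n = 2). GAR1-202 held 75.5 and 68.5% in parental and 85.1 and 83.6% in knockout cells. Both groups were apart for both transcripts, while the usage test gave an unadjusted p of 0.707 by edgeR's Simes method and 0.105 by its gene-level F test (adjusted p = 0.822). The transcripts differ in their first exon, which spans 109815553 to 109815804 of chromosome 4 in GAR1-201 and 109815510 to 109815545 in GAR1-202, and share exons 2 to 6. GAR1-201 rested on 151 and 94.97 reads in parental and 50.1 and 67.7 in knockout cells.

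NAF1-201 held 41.9 and 36.2% of NAF1 TPM in parental and 46.7 and 44.2% in knockout cells, and NAF1-202 held 27.5 and 19.1% against 14.6 and 18.3%. These coding transcripts end in different last exons, and neither share overlapped between the groups, though NAF1-202 was within 1 percentage point between parental library 2 and knockout library 2. PINX1-203 was lower in both knockout libraries (23.3 and 19.2% against 17.0 and 14.2%), and DKC1-207, a non-coding transcript, was higher in both (5.54 and 3.62% against 5.86 and 6.43%). The main coding transcript DKC1-201 held 57.5 to 59.7% in all 4 libraries. NOP10-201 took all reads of NOP10 in each library.

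TERT reads fell mostly on 3 transcripts, and their junctions are shown because a splice form of TERT is told from the full-length one by them. TERT-201 encodes the full-length protein and has 16 exons. TERT-204, annotated as a retained intron, lacks exons 1, 2, 7, 8 and 11 of TERT-201. It joins exon 6 (chr5:1278641-1278796) to exon 9, past the pair of exons whose skipping is known as the beta deletion, a form of TERT without telomerase activity. In the lines below the last 20 bases of exon 6 are in lower case, and the capitals mark the first 20 bases of the exon that follows, on the minus strand.
TERT-201, exon 6 to exon 7: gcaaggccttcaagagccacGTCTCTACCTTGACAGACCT
TERT-204, exon 6 to exon 9: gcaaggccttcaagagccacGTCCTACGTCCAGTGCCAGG
TERT-201 had 53.2 and 34.5 estimated reads in parental and 66.2 and 58.6 in knockout cells. TERT-204 had 28.4 and 2.77 reads in parental and 58.3 and 43.3 in knockout cells. Parental library 2 had the fewest reads on both. That library alone also had reads on TERT-202 (5.35) and on TERT-203 (11.3, or 6.24% of its TERT TPM). TERT-205, a short transcript of 406 bases that runs from exon 10 into the intron after exon 11, had 20.4 and 10.1 reads in parental and 17.5 and 9.09 in knockout cells. The deposited tables hold no reads per junction, so how many reads crossed either junction was not analysed here.

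As shares of TERT TPM, TERT-201 held 10.6 and 13.9% in parental and 12.5 and 18.5% in knockout cells, which overlap. TERT-204 held 9.81 and 1.92% in parental and 19.0 and 23.6% in knockout cells, and TERT-205 held 79.6 and 75.2% against 68.6 and 57.9%. Both groups were apart for TERT-204 and TERT-205. The usage test of TERT gave an unadjusted Simes p of 0.802 in edgeR (adjusted p = 1), and these shares rest on fewer than 60 reads a transcript for TERT-204 and TERT-205. TERT-205 is short, so few reads give it a high TPM.

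**Figure D5:**
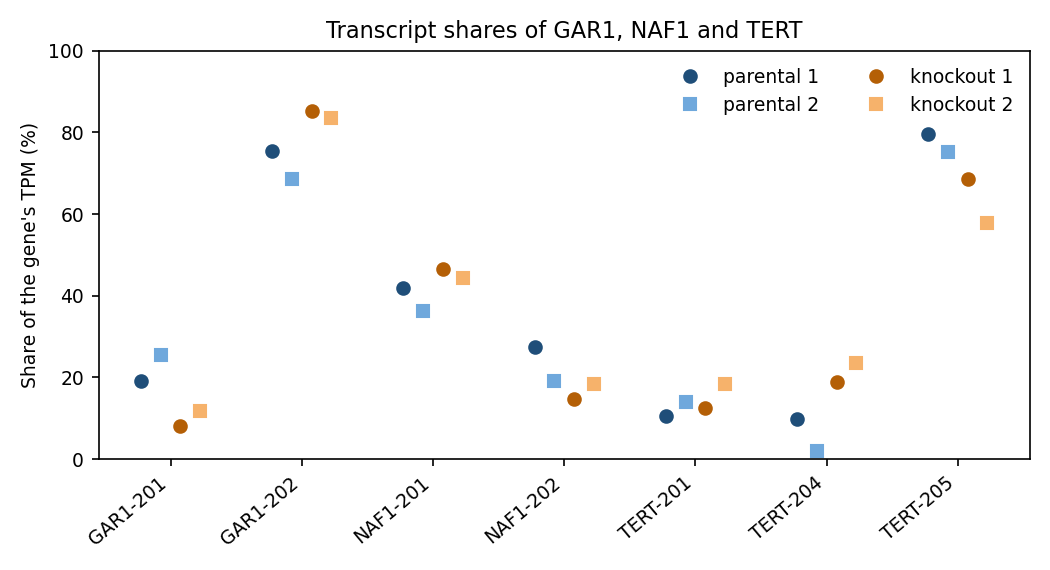
Share of the gene's TPM (percent, vertical axis) held by the named transcripts of GAR1, NAF1 and TERT, 1 point for each library. GAR1-201, NAF1-202 and TERT-205 are lower and GAR1-202, NAF1-201 and TERT-204 higher in both knockout libraries, while TERT-201 overlaps.

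TERC shares its H/ACA proteins with the other RNAs of that class. Of 147 genes with a SNORA symbol, 113 had reads, and together they held 5293 and 6142 reads in parental and 4534 and 5715 in knockout cells. This was 0.0286 and 0.0478% of all reads in the parental and 0.0269 and 0.0352% in the knockout libraries, highest in parental library 2. Of the 147 genes, 46 could be tested, and none passed edgeR's quasi-likelihood test with Benjamini-Hochberg adjustment (0.833% of all genes did). An unadjusted p under 0.05 was found for 10 of the 46 (14.3% of all genes had one). Their median log2 fold change was -0.88, beside 0.00 for all genes, with 20 lower and 1 higher in both knockout libraries, against 22.7% and 23.5% of all genes. Most of these RNAs are shorter than the fragments, and the knockout libraries had the longer fragments given above, whose part in this was not tested.

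The other genes of the telomerase pathway were taken from 4 lists of 52 genes, all of which were tested. None passed edgeR's quasi-likelihood test with Benjamini-Hochberg adjustment over all genes, against 0.833% of all genes, and 3 of the 52 had an unadjusted p under 0.05, against 14.3% of all genes. DESeq2 and limma voom called 0 as well. The median over the 52 genes was 0.01, beside 0.00 for all genes. The call of 0 depended on the parental libraries: with either of them left out, some of the 52 genes were called. In these fits the lone parental library was assumed to vary like the knockout libraries, and calls over all genes rose too. No share of the genes tested was worked out for these fits, so their pathway calls are not read as a result about these genes.

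Among the 15 genes of H/ACA assembly and Cajal bodies (median log2 fold change 0.05), NUFIP1, a snoRNP assembly factor, was the lowest at -0.30 (SE 0.28, edgeR quasi-likelihood adjusted p = 0.682). COIL, the Cajal body scaffold, was the highest at 0.19 (SE 0.15, adjusted p = 0.604 in the same test). Neither passed. NUFIP1 was at 44.4 and 23.0 CPM in parental and at 30.4 and 24.8 CPM in knockout cells, with the knockout libraries between the parental ones.

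The list of 15 genes for TERC end processing, capping and decay had a median of 0.01. DIS3, a ribonuclease of the exosome, was at 366 and 293 CPM in parental and at 242 and 233 CPM in knockout cells. Both knockout libraries were lower, with a log2 fold change of -0.47 (SE 0.14, unadjusted p = 0.00752, edgeR quasi-likelihood adjusted p = 0.173). RBM7, a subunit of the nuclear exosome targeting complex, was at 40.002 and 35.7 CPM in parental and at 49.1 and 48.1 CPM in knockout cells. Both knockout libraries were higher, with a log2 fold change of 0.36 (SE 0.14, unadjusted p = 0.0294, adjusted p = 0.292 in the same test).

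The 12 chaperones and binding partners of TERT had a median of -0.05. PTGES3, the p23 co-chaperone of HSP90, was at 552 and 404 CPM in parental and at 425 and 343 CPM in knockout cells, which overlap (log2 fold change -0.31, SE 0.17, edgeR quasi-likelihood adjusted p = 0.451). HSP90AA1 was the highest of the list at 0.17 (SE 0.16, adjusted p = 0.683 in the same test). The 10 transcription factors of TERT had a median of 0.10. MXD1, which competes with MYC for MAX and represses TERT, was at 15.2 and 18.4 CPM in parental and at 27.8 and 25.0 CPM in knockout cells. Both knockout libraries were higher, without passing (log2 fold change 0.66, SE 0.18, unadjusted p = 0.00628, adjusted p = 0.162 by edgeR). GABPA, which binds the mutated TERT promoter of some tumours, was the lowest at -0.20 (SE 0.13, adjusted p = 0.512 in the same test).

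The knockout is a single clone, so the 20 nearest tested protein-coding genes of each member were described as well, 10 on each side. Their median log2 fold change ran from -0.11 around NHP2 to 0.20 around NOP10. Around TERC, 17 of 20 were positive, with a median of 0.15, and around TERT 9 of 20 were positive, with a median of -0.04. Around PARN 15 of 20 were positive and around NAF1 13 of 20, each with a median of 0.18. The share of positive genes over all genes was not worked out. SPOCK3, near NAF1, was the only neighbour of any of the 10 genes that edgeR called, where 0.833% of all genes tested were called. These values describe the place of each gene and were not tested as a group.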

How the data were processed

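The authors' deposited tables give, per the file headers, an estimated count of reads, a TPM value and an effective length for each transcript. The submitters' processing notes name Salmon 1.6, STAR 2.5.3a, cutadapt 1.6, Picard, SAMtools 1.3.1, edgeR 3.24.3, R 3.5.1 and 3.3.3 and the build hg38. Not given in the sources used here are their roles, the strand setting and the annotation. Reads that fit several transcripts are divided among them, an error the tests do not see.

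Transcripts were joined to GENCODE v29 (GRCh38), with 197318 of 198002 matched. Gene sums of the estimated counts were rounded to whole numbers. All genes that passed filterByExpr were fitted in R 4.3.3 with edgeR 4.0.16 (TMM factors; quasi-likelihood F test of knockout against parental; adjusted p under 0.05 by Benjamini-Hochberg). Dividing a log2 fold change by the root of its F gave its SE, and CPM used the TMM factors. Usage was tested with diffSpliceDGE on transcripts with at least 10 reads and at least 5% of the gene in 2 libraries. Deposited TPM was summed per gene and used for levels and shares. Alternatives used DESeq2 1.42.0, limma 3.58.1, other scaling, filters and a length offset, log2(TPM + 1) and log2(TPM + 0.1), and each library left out. The steps were tested on simulated data.

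The members and lists were chosen with earlier results of these data known. The text names all 10 genes, each transcript with at least 5% of its gene's TPM in 2 libraries by count or name, LARP7 and 7SK as a check, and, where no gene of a list passed, its highest and lowest log2 fold change. GAR1, NAF1, PINX1, DKC1 and TERT transcripts, SPOCK3 and the genes that overlap a member were singled out after their values were seen. Values of 1 further gene are not reported here.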

Additional observations from a re-analysis of the deposited data

How the results depend on the processing

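None of the 10 genes was called, and none of those tested was called for transcript usage, under any alternative run. The member nearest to a call was TERC on its own entry without parental replicate 1 (log2 fold change 0.7575). That fit left parental library 2 alone in its group, where RF00024 took 78.1% of the reads of both entries. With the replicate block, edgeR called 1656 genes in all and 2 of the 52 pathway genes, against 154 and 0 without it; same-numbered libraries had a correlation of 0.16 between their deviations, and the labels do not say that a number marks a shared batch. The count of genes called was 831 with no filter, 91 with the length offset, 411 by DESeq2, 33 on log2(TPM + 1) and 35 on log2(TPM + 0.1), and ran from 200 to 2265 with 1 library left out, the highest without parental replicate 1, followed by 1825 without parental replicate 2. Pathway genes called were 2 with no filter, and some were called with 1 parental library left out, where calls over all genes rose too.

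A gene's log2 fold change turned its sign 16 times, over 7 of the alternatives, and none of these values was a call. With both entries summed TERC was at -0.0127. Without parental replicate 2, DKC1 was at -0.0944, NOP10 at -0.16 and PINX1 at -0.13, and without knockout replicate 1 NOP10 was at -0.0831. Without parental replicate 1, NHP2 was at 0.16 and GAR1 at 0.18, and with library size alone NHP2 was at 0.0244, where the median of all genes was 0.0952. Over the fits with 1 library left out, DKC1 ran from -0.0944 to 0.2511, NOP10 from -0.1642 to 0.1957, NHP2 from -0.2705 to 0.1590, GAR1 from -0.3971 to 0.1797 and PINX1 from -0.1339 to 0.5149. TERC on its own entry kept its sign there, from 0.1103 (without parental replicate 2) to 0.7575 (without parental replicate 1). The summed entries were not fitted with 1 library left out. TERT kept its sign in these fits, from 0.2717 (without knockout replicate 1) to 0.6088 (without knockout replicate 2). So did WRAP53, from -0.4355 (without parental replicate 2) to -0.1256 (without parental replicate 1). With the length offset TERT was at 0.0323 (adjusted p = 0.986 by edgeR). On log2(TPM + 1) NHP2 was at 0.41, GAR1 at 0.36, NAF1 at 0.26 and WRAP53 at 0.16, and on log2(TPM + 0.1) they were at 0.41, 0.37, 0.27 and 0.19. These TPM scales moved the median of all genes to 0.32 and 0.42, so relative to it NHP2 and GAR1 were above and NAF1 and WRAP53 below on the first scale, and all 4 were below on the second. The cause of the other turns was not tested.

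TERT had 64 to 142 reads in a library, and its interval runs from 0.873 to 2.13 times the parental level. TERC on its own entry had 79.4 to 181.1 reads, and its interval runs from 0.854 to 2.01 times. With RF00024 summed in, the locus had 298 to 430 reads, and the interval runs from 0.656 to 1.498 times. How much of these widths comes from depth and how much from the spread between libraries was not tested.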
